A study of Mus musculus with 9 samples.

Results

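The expression of 9 feedback targets of Wnt signalling, Axin2, Sp5, Nkd1, Notum, Znrf3, Rnf43, Lgr5, Dkk1 and Apcdd1, was followed in E14, a single mouse embryonic stem cell (ESC) line of the 129/Ola strain, by RNA-seq in 3 culture states with 3 libraries each. The 9 genes were chosen by name as genes through which the pathway regulates itself, and all 9 were found among the 38293 genes of the count table. Earlier results of these data were known at that choice, so the counts of called targets below are a description and not an unbiased test. mESC-2i, labelled naive, were grown in N2B27, a serum-free medium, with 1 µM of the MEK inhibitor PD0325901, 3 µM of the GSK3 inhibitor CHIR99021 and 10 ng/mL mouse LIF. mESC-ser, labelled primed, were grown on gelatin with 15% serum and 10 ng/mL LIF. Epiblast-like cells (EpiLC) were made from naive cells on fibronectin in N2B27 with 20 ng/mL activin A, 12 ng/mL bFGF and 1% KSR (a serum replacement), and the length of that step is not given in the labels. CHIR99021 was listed for mESC-2i alone, but these cells differed from both other states in the MEK inhibitor as well, from mESC-ser in the basal medium, and from EpiLC in LIF, coating and growth factors. GSK3 inhibition therefore cannot be told apart from these differences in the values that follow.

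In the absence of Wnt signalling, a destruction complex built on the scaffolds AXIN and APC lets the kinase GSK3 mark β-catenin for degradation. A Wnt ligand bound to its Frizzled and LRP5/6 receptors, or a chemical inhibitor of GSK3, lets β-catenin accumulate and switch on genes together with TCF/LEF transcription factors. Many of these genes encode inhibitors of the pathway itself and so form a negative feedback, and in mouse ESC inhibition of GSK3 is known to favour self-renewal in the naive state.

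Total counts were 7187576 to 16829549 per library, and libraries of a group correlated at 0.980 to 0.994 in log2 CPM (counts relative to library size) against 0.789 to 0.885 between groups (Pearson, across 16187 genes, which are not independent replicates). Summed marker levels separated the states, with mESC-ser between the other 2. The summed level of 9 naive markers was 3452 to 3550 CPM in mESC-2i, 1878 to 1994 in mESC-ser and 114 to 127 in EpiLC, while 7 formative markers summed to 125 to 144, 807 to 968 and 2268 to 2327 CPM. Of the 9 naive markers, 7 were called lower and 1 higher in mESC-ser versus mESC-2i. The means of Nr0b1 (52.8, 106 and 10.0 CPM in mESC-2i, mESC-ser and EpiLC) and Zfp42 (297, 349 and 11.8 CPM) were highest in mESC-ser. Of 4 pluripotency genes shared by the states, Pou5f1 was at 882 ± 203, 781 ± 60.0 and 1006 ± 26.3 CPM (SD, n = 3) in mESC-2i, mESC-ser and EpiLC and was not called in any comparison. The others moved, with Sox2 at 473 ± 15.0, 504 ± 55.6 and 61.8 ± 6.32 CPM, Utf1 at 28.2 ± 3.60, 338 ± 24.9 and 901 ± 60.3 CPM and Sall4 at 189 ± 11.5, 496 ± 45.7 and 192 ± 4.03 CPM. Among markers of other cell types, 7 primitive streak genes summed to 107 to 124 CPM in mESC-2i, against 13.8 to 17.6 in mESC-ser and 13.2 to 14.8 in EpiLC. Most of this was Brachyury (T), itself a known Wnt target that also stands among the further targets described last, at 86.4 ± 10.9 CPM in mESC-2i. Of the 4 streak genes tested in each comparison with mESC-2i, 3 were called lower, T, Eomes and Gsc. Eomes was at 15.8 ± 1.12 CPM in mESC-2i against 8.57 ± 1.32 and 9.80 ± 0.190 CPM in mESC-ser and EpiLC, and Gsc was at 9.45 ± 2.39 against 0.243 ± 0.0668 and 0.475 ± 0.196 CPM. Mixl1 was at 0.926 ± 0.382, 0.425 ± 0.230 and 1.91 ± 0.899 CPM. Primitive endoderm markers summed to 20.7 to 24.5, 32.8 to 34.9 and 7.66 to 10.5 CPM, neural markers to 188 to 209, 186 to 201 and 63.5 to 66.0 CPM, and fibroblast markers to 44.6 to 52.2, 58.0 to 78.0 and 40.9 to 45.5 CPM. These sums hide opposite moves. Compared with mESC-2i, 2 neural genes were called higher and 3 lower in mESC-ser, and 4 and 2 primitive endoderm genes. Pax6 was at 1.71 ± 0.356 and 24.9 ± 0.888 CPM in mESC-2i and mESC-ser, and Sox1 at 24.3 ± 1.61 and 6.74 ± 1.64. In EpiLC, 2 fibroblast genes were called higher and 3 lower than in mESC-2i. Thy1 was at 3.08 ± 0.447 and 29.5 ± 2.15 CPM in mESC-2i and EpiLC, and Col1a1 at 22.8 ± 4.04 and 1.48 ± 0.943. The part of cells of these types in the results was not tested, and in bulk RNA fewer cells that express a gene and less RNA per cell cannot be told apart.

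The 9 targets were highest in mESC-2i by their sum. Their summed level went from 503 ± 30.2 CPM in mESC-2i to 128 ± 11.9 for mESC-ser and 31.0 ± 4.01 for EpiLC (SD, n = 3). Most of the sum in mESC-2i came from Axin2, Sp5 and Notum, at means of 172, 147 and 106 CPM. Znrf3 did not share the first step, at means of 27.3 CPM in mESC-2i and 33.2 in mESC-ser. A gene was called at an adjusted p under 0.05 in the quasi-likelihood test of edgeR (Benjamini-Hochberg over all tested genes) together with an absolute log2 fold change over 0.5. In mESC-ser versus mESC-2i, 8 of the 9 targets had enough counts to be tested, 7 were called lower and 0 higher. In the background of all 15728 tested genes, 30.3% were called lower and 25.9% higher. In EpiLC versus mESC-2i, 8 were tested and all 8 of these were called lower, where 37.8% of 15378 tested genes were called lower and 32.0% higher. In EpiLC versus mESC-ser, 6 were tested, 5 were called lower and 1, Nkd1, higher, where 37.8% of 15345 tested genes were called lower and 35.5% higher.

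The median log2 fold change of the tested targets was -2.02 in mESC-ser versus mESC-2i, -4.47 in EpiLC versus mESC-2i and -2.54 in EpiLC versus mESC-ser. Over all tested genes the medians were -0.04, -0.11 and -0.07. The libraries of the groups compared did not overlap in CPM for 7 of the 8 tested targets in the first comparison, for 8 of 8 in the second and for 6 of 6 in the third, but this was common in the background too, at 70.6%, 81.8% and 85.7% of tested genes. The first and second comparisons share the mESC-2i libraries, and each state enters 2 of the 3 comparisons, so the counts are not independent of each other. The targets did not move as one unit, as the plot of levels in each library shows, and Nkd1 and Znrf3 departed most visibly from the order mESC-2i, mESC-ser, EpiLC.

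**Figure D1:**
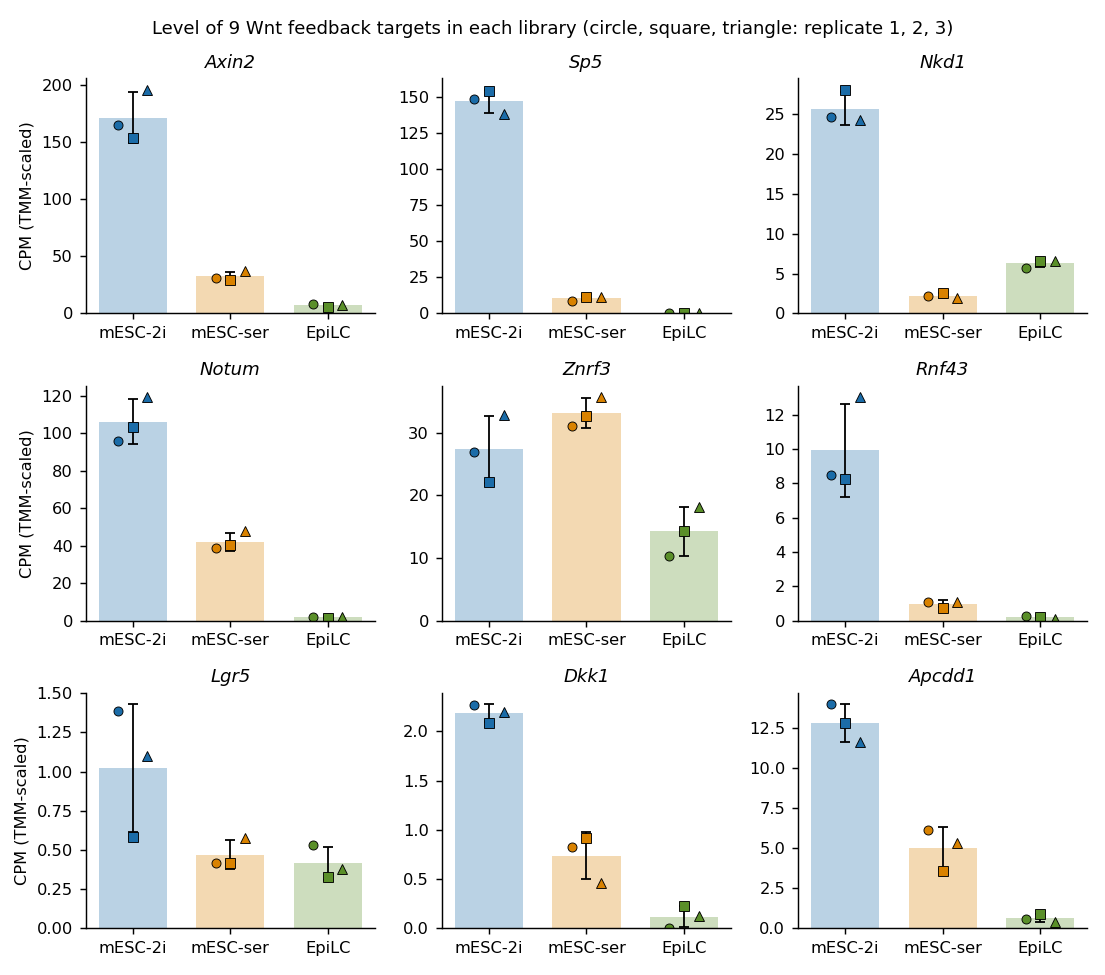
Level of each of the 9 targets in CPM (y axis, linear and starting at 0, with its own scale in each panel) in the 3 states (x axis). Bars are means, error bars the SD of 3 libraries, and points the single libraries. Axin2, Sp5, Notum, Rnf43, Dkk1 and Apcdd1 stepped down from mESC-2i to mESC-ser to EpiLC, Nkd1 was lowest in mESC-ser, at 1.90 to 2.58 CPM, and Znrf3 overlapped between mESC-2i and mESC-ser.

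Axin2 encodes a scaffold of the destruction complex and is the most widely used readout of the pathway. It lies on the plus strand of chromosome 11 at 108920349 to 108950783 (ENSMUSG00000000142, build mm10, as are all positions here). Its level was 165, 153 and 196 CPM in replicates 1 to 3 of mESC-2i, 30.8, 29.6 and 37.3 CPM in mESC-ser, and 8.13, 6.01 and 7.66 CPM in EpiLC. Every mESC-2i library lay above every mESC-ser library, and these in turn lay above every EpiLC library. Axin2 fell by 2.42 on the log2 scale in mESC-ser versus mESC-2i (SE 0.13, 5.36-fold, edgeR adjusted p = 1.87e-07). It fell by 4.57 in EpiLC versus mESC-2i (SE 0.15, 23.8-fold, edgeR adjusted p = 2.68e-09), and by 2.11 in EpiLC versus mESC-ser (SE 0.14, edgeR adjusted p = 3.24e-10). Axin2 shares 209 bp (3.80%) of its exonic bases with the antisense gene Gm11670, which held 0 to 2 counts in any library, against 55 to 2496 counts for Axin2.

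Sp5 encodes a zinc finger transcription factor of the Sp/KLF family that is induced by β-catenin and is known to dampen other Wnt targets. The gene lies on the plus strand of chromosome 2 at 70474923 to 70477729 (ENSMUSG00000075304). Its level was 148, 154 and 138 CPM in mESC-2i and fell to 8.81, 11.1 and 11.6 CPM in mESC-ser. In EpiLC the gene was almost silent, with 1, 3 and 1 counts in the 3 libraries, or 0.133, 0.328 and 0.126 CPM. The groups did not overlap. Sp5 fell by 3.83 on the log2 scale in mESC-ser versus mESC-2i (SE 0.13, 14.2-fold, edgeR adjusted p = 1.47e-08), the largest fitted fall of the 8 tested targets in that comparison. The 4779 counts of mESC-2i and 5 counts of EpiLC, taken relative to library size, gave a ratio of 721 with a 95% interval of 308.7 to 2221 (exact, counting error only), and the edgeR adjusted p was 4.15e-10. The fitted log2 value of this comparison, -9.41, depends on the prior count of the fit and moved to -10.00 without EpiLC replicate 2. Its fitted 95% interval, -9.85 to -8.97, was narrower than the exact one on the same scale and is too narrow for so few counts. Between mESC-ser and EpiLC the ratio of counts was 51.8 (interval 22.0 to 160, edgeR adjusted p = 8.87e-11).

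Since Axin2 and Sp5 carried the highest counts of the 9 genes in mESC-2i, and Sp5 the steepest change, the 250 bases upstream of their start sites are shown. A stretch of the Dkk1 promoter is added. It was cut around the matches of that window, so it cannot be compared with the full windows. All are RefSeq sequences of GRCm38.p6, the assembly of mm10, written 5′ to 3′ on the strand of the gene. Capitals mark matches to 4 heptamers of the TCF/LEF type, namely CTTTGAA along with the variant CTTTGAT, and CTTTGTA along with the variant CTTTGTT, searched on both strands, and the rest is in lower case. The Axin2 window is chr11:108920099-108920348 (plus strand), the Sp5 window chr2:70474673-70474922 (plus strand) and the Dkk1 stretch of 30 bases chr19:30549586-30549615 (minus strand).
Axin2: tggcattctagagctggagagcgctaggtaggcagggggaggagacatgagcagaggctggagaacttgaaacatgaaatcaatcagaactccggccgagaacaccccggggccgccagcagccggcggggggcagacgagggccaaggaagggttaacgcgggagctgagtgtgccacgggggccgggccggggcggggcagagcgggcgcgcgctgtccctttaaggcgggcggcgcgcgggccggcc
Sp5: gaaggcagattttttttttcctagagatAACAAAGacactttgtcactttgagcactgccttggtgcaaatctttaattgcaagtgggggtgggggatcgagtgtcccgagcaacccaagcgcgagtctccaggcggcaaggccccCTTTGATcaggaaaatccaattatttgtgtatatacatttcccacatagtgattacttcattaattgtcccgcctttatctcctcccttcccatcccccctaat
Dkk1: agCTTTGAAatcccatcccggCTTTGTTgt
The Sp5 window held 2 matches, 1 on the opposite strand starting 222 bases upstream of the start site and 1 on the gene's own strand 104 bases upstream. The Dkk1 window held 2 as well, 117 and 98 bases upstream, and the Axin2 window held 0 in these letters. Windows were present in the table for 5 of the 9 targets, and 0 matches were found in those of Nkd1 and Rnf43. Notum, Znrf3, Lgr5 and Apcdd1 had no entry. Of 32851 windows of 300 bases (250 before and 50 after a start site), 16.9% held at least 1 match and 1.94% held 2 or more. The RefSeq start sites of Dkk1, Nkd1 and Rnf43 lie inside the genes as annotated in GENCODE, so their windows are not at the annotated gene starts. A match of letters is a description and not a binding site.

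Nkd1 encodes a cytoplasmic inhibitor that binds Dishevelled, the protein that relays the signal from the receptors. It lies on the plus strand of chromosome 8 at 88521354 to 88594884 (ENSMUSG00000031661). Its level was 24.6, 28.0 and 24.3 CPM in mESC-2i, 2.20, 2.58 and 1.90 in mESC-ser, and 5.73, 6.55 and 6.53 CPM in EpiLC. Nkd1 was thus lowest in mESC-ser, with no overlap between any 2 states. It fell by 3.56 on the log2 scale in mESC-ser versus mESC-2i (SE 0.16, 11.8-fold, edgeR adjusted p = 6.61e-08) and by 2.03 in EpiLC versus mESC-2i (SE 0.14, 4.08-fold, edgeR adjusted p = 3.17e-07). Between EpiLC and mESC-ser it rose by 1.58 (SE 0.19, 3.00-fold higher in EpiLC, edgeR adjusted p = 9.51e-07). Its relative Nkd2 also rose in that comparison, by 1.68 (SE 0.20).

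Notum encodes a secreted carboxylesterase that removes the lipid which Wnt ligands need to bind Frizzled. It lies on the minus strand of chromosome 11 at 120653788 to 120661175 (ENSMUSG00000042988). Its level was 95.8, 103 and 119 CPM in mESC-2i, against 38.6, 40.4 and 47.7 CPM in mESC-ser, and 1.73, 1.64 and 1.76 CPM in EpiLC. The states did not overlap. Notum fell by 1.36 on the log2 scale in mESC-ser versus mESC-2i (SE 0.12, 2.56-fold, edgeR adjusted p = 5.23e-06), a numerically smaller step than those of Axin2, Sp5, Nkd1 and Rnf43, and these differences between genes were not tested. It fell by 5.95 in EpiLC versus mESC-2i (SE 0.16, 61.9-fold, edgeR adjusted p = 7.73e-10) and by 4.55 in EpiLC versus mESC-ser (SE 0.16, 23.5-fold, edgeR adjusted p = 2.07e-13). Notum shares 708 bp (29.4%) of its exonic bases with the antisense gene Notumos and 210 bp (8.72%) with Myadml2os, and the library kit does not mark strand, so reads from these parts cannot be assigned. Notumos moved in the same order, at 4.63 ± 0.068, 2.47 ± 0.357 and 0.0444 ± 0.0769 CPM in mESC-2i, mESC-ser and EpiLC (SD, n = 3), a small part of the counts of Notum, and Myadml2os held 0 to 2 counts in any library.

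Znrf3 and Rnf43 encode related transmembrane E3 ubiquitin ligases that take Frizzled off the cell surface, and R-spondins act by clearing them. Znrf3 lies on the minus strand of chromosome 11 at 5276324 to 5444847 (ENSMUSG00000041961). Its level was 27.0, 22.2 and 32.8 CPM in mESC-2i, against 31.1, 32.7 and 35.7 CPM in mESC-ser, and 10.3, 14.3 and 18.2 CPM in EpiLC. The 2 mESC states overlapped, and replicate 3 of mESC-2i lay above 2 of the mESC-ser libraries. Libraries of the same replicate number were taken to be paired, though this is not settled. Znrf3 was higher in mESC-ser in 3 of 3 such pairs. The log2 fold change in mESC-ser versus mESC-2i was 0.25 (SE 0.15, 95% interval -0.076 to 0.579, edgeR adjusted p = 0.155), and 0.26 with a replicate block (SE 0.11, edgeR adjusted p = 0.0564), not called in either fit. A fall of the size seen for the other tested targets lay outside the first fit's interval. Over all settings the value ranged from 0.11, without mESC-2i replicate 2, to 0.42, without mESC-2i replicate 3. The latter had an edgeR adjusted p of 0.00696 and missed a call as higher only on the fold threshold, so this result depends on single libraries. Znrf3 fell by 0.94 in EpiLC versus mESC-2i (SE 0.21, edgeR adjusted p = 0.00163) and by 1.14 in EpiLC versus mESC-ser (SE 0.14, edgeR adjusted p = 1.31e-06). Both calls were lost with offsets for gene length and GC content, at -0.43 (edgeR adjusted p = 0.0436) and -0.50 (edgeR adjusted p = 0.00281), short of the fold threshold.

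Rnf43 lies on the plus strand of chromosome 11 at 87662722 to 87735539 (ENSMUSG00000034177). Its level was 8.46, 8.26 and 13.0 CPM in mESC-2i, against 1.10, 0.749 and 1.09 CPM in mESC-ser, and 0.266, 0.218 and 0.126 CPM in EpiLC. Unlike those of Znrf3, the Rnf43 libraries of the 2 mESC states were far apart. Rnf43 fell by 3.34 on the log2 scale in mESC-ser versus mESC-2i (SE 0.27, 10.1-fold, edgeR adjusted p = 2.33e-06). In EpiLC only 5 counts were left in all, against 332 in mESC-2i, a ratio of 50.1 relative to library size (exact 95% interval 21.3 to 155, edgeR adjusted p = 4.32e-07). Between mESC-ser and EpiLC the gene was too low to be tested, and the ratio of 44 to 5 counts was 4.94 (interval 1.96 to 15.9, counting error only).

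The 2 ligases can be set against each other within each library, since a ratio of 2 genes of the same library does not depend on how libraries are scaled. The ratio of Znrf3 to Rnf43 counts was 2.52 to 3.19 in mESC-2i, 28.2 to 43.7 in mESC-ser and 38.5 to 145 in EpiLC, where it rests on 1 or 2 Rnf43 counts per library. The mESC-2i libraries thus had the lowest ratio. The ratio of Notum to Axin2 counts was 0.580 to 0.674 in mESC-2i, 1.26 to 1.36 in mESC-ser and 0.213 to 0.273 in EpiLC, highest in mESC-ser. That of Nkd1 to Axin2 was 0.124 to 0.183, 0.0509 to 0.0871 and 0.705 to 1.09, highest in EpiLC. That of Sp5 to Axin2 was 0.704 to 1.00, 0.286 to 0.374 and 0.0164 to 0.0545, highest in mESC-2i. In these 4 pairs the mESC-2i libraries did not overlap those of another state. In 1 further pair, Apcdd1 to Axin2, they did, with ratios of 0.0593 to 0.0848 in mESC-2i, 0.121 to 0.199 in mESC-ser and 0.0492 to 0.145 in EpiLC. The pairs were chosen after the values were seen, so no test is given, and since counts are not divided by length the ratios compare states and not the 2 genes.

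**Figure D2:**
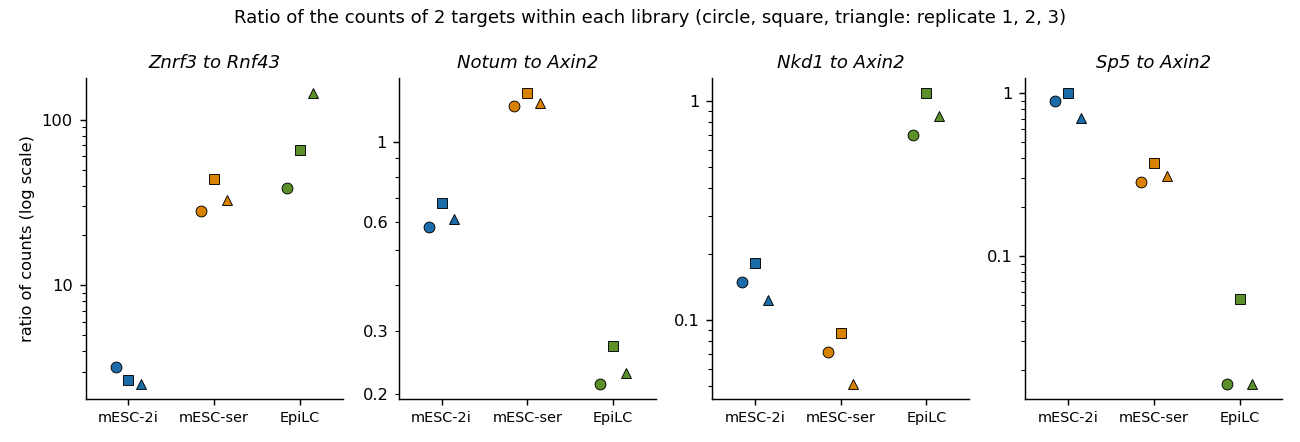
Ratio of the counts of 2 targets within each library (y axis, log scale, its own range in each panel) in the 3 states (x axis), 1 point a library. Znrf3 to Rnf43 was 2.52 to 3.19 in mESC-2i and above 28 in both other states, while Notum to Axin2 was highest in mESC-ser, Nkd1 to Axin2 in EpiLC and Sp5 to Axin2 in mESC-2i.

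Lgr5 encodes a receptor for R-spondins and marks Wnt-dependent stem cells in the intestine and other epithelia. It lies on the minus strand of chromosome 10 at 115450311 to 115587780 (ENSMUSG00000020140). It was near the limit of detection in every state, with 11, 7 and 14 counts in mESC-2i, 6, 5 and 10 counts in mESC-ser and 4, 3 and 3 counts in EpiLC. These are 1.39, 0.584 and 1.10 CPM, 0.413, 0.416 and 0.575 CPM, and 0.533, 0.328 and 0.377 CPM. Replicate 2 of mESC-2i lay next to the highest libraries of the other states. The gene was too low for the test, and relative to library size the counts of mESC-2i were 2.05 times those of mESC-ser (exact 95% interval 1.15 to 3.74, counting error only) and 2.41 times those of EpiLC (1.16 to 5.50). With no filter on low counts its log2 fold change was -1.04 in mESC-ser versus mESC-2i (edgeR adjusted p = 0.0597) and -1.28 in EpiLC versus mESC-2i (edgeR adjusted p = 0.0460), and DESeq2 gave adjusted p-values of 0.168 and 0.167.

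The related receptor Lgr4 had far more counts and was higher in both other states than in mESC-2i. Lgr4 was at 35.3 ± 2.51 CPM in mESC-2i, but at 114 ± 2.29 and 77.7 ± 7.90 CPM in mESC-ser and EpiLC (SD, n = 3), a log2 fold change of 1.67 (SE 0.10) and 1.14 (SE 0.11) against mESC-2i, called higher in both. Lgr6, the third receptor of this kind, had too few counts to be tested.

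Dkk1 encodes a secreted antagonist that binds LRP5/6. It lies on the minus strand of chromosome 19 at 30545863 to 30549665 (ENSMUSG00000024868), and its promoter stretch is the one printed above. Its level was 2.27, 2.09 and 2.20 CPM in mESC-2i, against 0.826, 0.916 and 0.460 CPM in mESC-ser, and 0, 0.218 and 0.126 CPM in EpiLC. Though low throughout, the states did not overlap. Dkk1 fell by 1.62 on the log2 scale in mESC-ser versus mESC-2i (SE 0.30, 3.08-fold, edgeR adjusted p = 0.000831). The EpiLC libraries held 3 counts in all, against 71 in mESC-2i, a ratio of 17.9 relative to library size (exact 95% interval 5.87 to 88.6, edgeR adjusted p = 2.74e-05), and the fitted log2 value of -4.03 moved to -4.81 without EpiLC replicate 2. Against the 31 counts of mESC-ser, where no test was made, the ratio was 5.79 (interval 1.81 to 29.6).

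Apcdd1 encodes a membrane glycoprotein that binds Wnt ligands and LRP5 and inhibits signalling. It lies on the plus strand of chromosome 18 at 62922231 to 62961179 (ENSMUSG00000071847). Its level was 14.01, 12.8 and 11.6 CPM in mESC-2i, against 6.13, 3.58 and 5.29 CPM in mESC-ser, and 0.533, 0.874 and 0.377 CPM in EpiLC. The states did not overlap. Apcdd1 fell by 1.36 on the log2 scale in mESC-ser versus mESC-2i (SE 0.19, 2.57-fold, edgeR adjusted p = 0.000125), by 4.37 in EpiLC versus mESC-2i (SE 0.26, edgeR adjusted p = 1.26e-07) and by 2.96 in EpiLC versus mESC-ser (SE 0.34, edgeR adjusted p = 4.13e-07). With offsets for gene length and GC content the last value was -1.80 and that against mESC-2i -3.71, both still called.

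**Figure D3:**
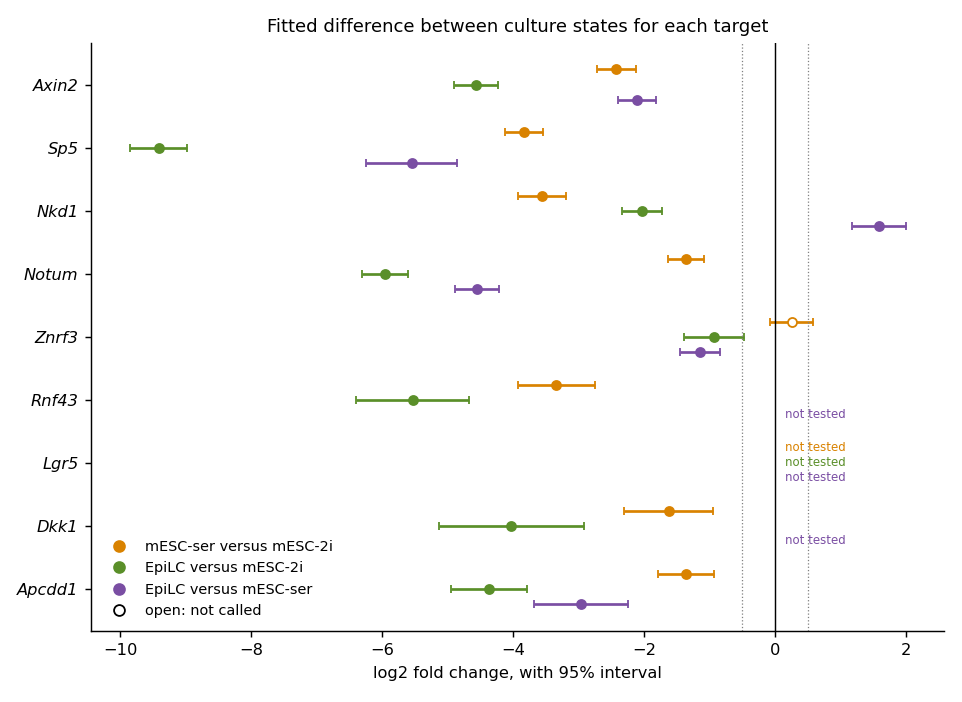
Fitted log2 fold change of each target (x axis) in the 3 comparisons, with 95% intervals from the edgeR fit. Filled points were called, the open point was not, and dotted lines mark the fold threshold of 0.5. The intervals of Sp5, Rnf43 and Dkk1 in EpiLC rest on 3 to 5 counts and depend on the prior count of the fit. They are narrower than the exact intervals of the count ratios and do not cover counting error. Apart from Znrf3 in mESC-ser versus mESC-2i (0.25) and Nkd1 in EpiLC versus mESC-ser (1.58), the points lie below 0.

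To compare levels between the genes, CPM was divided by the length of each gene's exons in kb. In mESC-2i the order was Sp5 at 69.9 ± 3.89 CPM per kb (SD, n = 3), Notum at 44.1 ± 5.00, Axin2 at 31.2 ± 3.99 and Nkd1 at 5.62 ± 0.457. Below these came Znrf3 at 3.46 ± 0.674, Rnf43 at 1.51 ± 0.412, Apcdd1 at 0.995 ± 0.0928, Dkk1 at 0.900 ± 0.0386 and Lgr5 at 0.0997 ± 0.0397 CPM per kb. Of the neighbours in this order, Apcdd1 and Dkk1 alone overlapped. In mESC-ser Notum came first, at 17.5 ± 1.99 CPM per kb, and Axin2, Sp5 and Znrf3 followed at 5.91 ± 0.751, 4.99 ± 0.699 and 4.20 ± 0.301, each overlapping the next. Nkd1 (0.489 ± 0.0748), Apcdd1 (0.388 ± 0.101) and Dkk1 (0.302 ± 0.0994) stood apart from Znrf3 above and Rnf43 below but overlapped each the next among themselves, and Rnf43 (0.150 ± 0.0307) and Lgr5 (0.0456 ± 0.00905) came last.

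In EpiLC Znrf3 came first, at 1.81 ± 0.503 CPM per kb, and overlapped Nkd1 at 1.38 ± 0.103, which overlapped Axin2 at 1.32 ± 0.202. Notum stood apart below them at 0.710 ± 0.0261 CPM per kb, and the other 5, from Sp5 at 0.0931 ± 0.0545 to Rnf43 at 0.0310 ± 0.0109, overlapped their neighbours in the order. Sp5 thus went from the first place in mESC-2i to the fifth in EpiLC and Znrf3 from the fifth to the first. The exonic lengths used for Apcdd1 (12.9 kb) and Lgr5 (10.3 kb) are the longest of the 9 and pool all annotated transcripts, so the levels per kb of these genes are low estimates if short transcripts prevail. The length used for Notum includes the 708 bp and 210 bp shared with antisense genes. If reads from these parts were not counted, its level per kb is a low estimate too. The place of Notum below Sp5 in mESC-2i is therefore not secure, nor is its place in EpiLC.

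**Figure D4:**
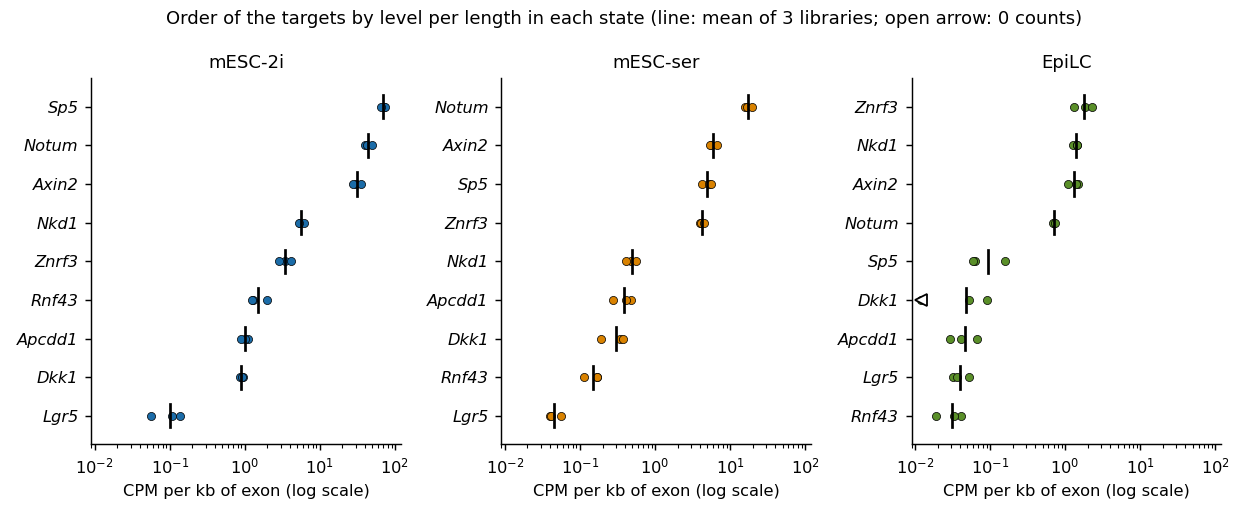
Targets ordered by mean level per kb of exon in each state (x axis, log scale, in CPM per kb, the same in the 3 panels). Points are libraries, vertical lines means, and the open arrow stands for the EpiLC library with 0 Dkk1 counts. The range narrows from 0.0997 to 69.9 in mESC-2i to 0.0310 to 1.81 in EpiLC, and Znrf3 climbs from the fifth place to the first.

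Among the targets, log2 CPM over the 9 libraries ran most closely together for Axin2 and Sp5 (Pearson r = 0.986) and least for Nkd1 and Znrf3 (r = -0.119). Nkd1 was also the furthest from Axin2 (r = 0.596), with Znrf3 next (r = 0.652). These values describe 9 points that fall into 3 states and share library and depth, so they carry no p. By the same measure over 10369 genes, the genes most like Axin2 were Vwf (r = 0.999), Slc13a5 (r = 0.998) and B4galt5 (r = 0.997). Those most like Sp5 were H2afy (r = 0.999), Hoxc13 (r = 0.999) and Ckb (r = 0.998), and those most like Nkd1 were Tuba3a (r = 0.999), Ctsb (r = 0.997) and Aldoc (r = 0.997). Tuba3a had the same low point in mESC-ser as Nkd1, at 139, 13.4 and 34.7 CPM in mESC-2i, mESC-ser and EpiLC. For Notum they were Atp8b2 (r = 0.9996), Pdgfa (r = 0.999) and Atg13 (r = 0.999), for Znrf3 Hykk (r = 0.989), Zc3h12a (r = 0.985) and Cntrob (r = 0.983), and for Rnf43 Usp30 (r = 0.998), Rab43 (r = 0.997) and Kazn (r = 0.997). For Dkk1 they were Prr5l (r = 0.991), Cd55 (r = 0.991) and Anp32-ps (r = 0.988), and for Apcdd1 Fam81a (r = 0.995), Pga5 (r = 0.995) and Stambp (r = 0.994). Lgr5 was too low to be placed. A high r does not mean a change of like size. Usp30 was at 27.1, 18.9 and 15.8 CPM in mESC-2i, mESC-ser and EpiLC, where Rnf43 was at 9.92, 0.981 and 0.203 CPM.

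The close relatives of the targets, 9 genes, did not follow them as a group. Of 6 tested in mESC-ser versus mESC-2i, 1 was called higher (Lgr4) and 1 lower, and in EpiLC versus mESC-2i 2 of 6 were called higher and 2 lower. In EpiLC versus mESC-ser 1 of 6 was called higher and 2 lower. Dkk3, a divergent member of the Dickkopf family, was the one that fell with Dkk1, from 31.4 ± 3.82 CPM in mESC-2i to 2.05 ± 0.424 in mESC-ser and 1.47 ± 0.116 in EpiLC (log2 fold change -3.93, SE 0.18, and -4.41, SE 0.18). Sp8, a relative of Sp5, was not called in mESC-ser (-0.20, SE 0.21) and fell by 2.20 in EpiLC (SE 0.29), both against mESC-2i, and by 1.96 in EpiLC versus mESC-ser (SE 0.29). Nkd2 was not called in mESC-ser (0.12, SE 0.24) and rose by 1.76 in EpiLC (SE 0.20) on the same terms. Axin1, the constitutive counterpart of Axin2, was not called in either comparison with mESC-2i (0.23, SE 0.09, and -0.49, SE 0.10) and fell by 0.67 in EpiLC versus mESC-ser (SE 0.09).

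Of the 16 Wnt receptors and co-receptors, all tested, 6 were called higher and 4 lower in mESC-ser versus mESC-2i, 3 higher and 5 lower in EpiLC versus mESC-2i, and 4 higher and 5 lower in EpiLC versus mESC-ser. Fzd10 fell in both comparisons with mESC-2i, by 2.92 (SE 0.12) and 3.96 (SE 0.12), from 126 ± 8.65 CPM in mESC-2i to 16.9 ± 2.43 and 8.10 ± 0.691 CPM (SD, n = 3). Fzd7 rose by 2.11 (SE 0.12) and 1.71 (SE 0.11) and Ror1 by 2.27 (SE 0.24) and 2.03 (SE 0.27), while Fzd2 rose by 2.68 in EpiLC (SE 0.11). Ror2 fell by 1.51 in both (SE 0.14 and 0.12), Lrp5 by 0.72 in mESC-ser (SE 0.13) and Fzd5 by 2.46 in EpiLC (SE 0.11). In EpiLC versus mESC-ser Fzd2 rose by 2.28 (SE 0.11), Lrp5 by 0.73 (SE 0.11) and Fzd8 by 0.69 (SE 0.16), and Fzd5 fell by 3.11 (SE 0.12), Lrp6 by 2.00 (SE 0.10) and Fzd6 by 1.45 (SE 0.19). The co-receptor Lrp6, on which Dkk1 acts, rose by 1.33 in mESC-ser (SE 0.15) and fell by 0.72 in EpiLC (SE 0.16). Of the 4 R-spondins, ligands of Lgr4 and Lgr5, 2 were tested against mESC-2i, where Rspo1 rose by 1.35 (SE 0.28) in mESC-ser and 2.69 (SE 0.25) in EpiLC and Rspo3 fell by 2.70 (SE 0.40) and 3.50 (SE 0.71), the last a fitted value that rests on 3 counts in EpiLC. In EpiLC versus mESC-ser Rspo1, the 1 tested, rose by 1.39 (SE 0.17).

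Other Wnt antagonists, 15 genes, gave 3 higher and 4 lower of 12 tested in mESC-ser versus mESC-2i, 1 higher and 5 lower of 10 tested in EpiLC versus mESC-2i, and 2 higher and 2 lower of 9 tested in EpiLC versus mESC-ser. The secreted Frizzled-related proteins split. Sfrp1 fell by 1.80 (SE 0.10) and 3.80 (SE 0.12) against mESC-2i, and Sfrp2 rose by 1.49 (SE 0.15) and 3.13 (SE 0.14). In mESC-ser versus mESC-2i the largest falls were those of the secreted inhibitors Wif1 (-3.40, SE 0.50) and Frzb (-2.78, SE 0.37), and Shisa3 (2.71, SE 0.38) and Sfrp5 (1.98, SE 0.36) rose, all at mean levels of at most 2.04 CPM in either group. In EpiLC versus mESC-2i Trabd2b (-3.00, SE 0.60, with 4 counts in EpiLC) and Wif1 (-2.06, SE 0.39) fell. Sfrp1 also fell in EpiLC versus mESC-ser, by 1.96 (SE 0.12), as did Kremen1, a receptor for Dkk1, by 1.93 (SE 0.14), while Sfrp2 rose by 1.68 (SE 0.09) and Kremen2 by 0.81 (SE 0.28). The destruction complex and its regulators, 18 genes, gave 4 higher and 1 lower in mESC-ser versus mESC-2i, 0 higher and 9 lower in EpiLC versus mESC-2i, and 1 higher and 10 lower in EpiLC versus mESC-ser. Against mESC-2i, Tnks, whose product tankyrase marks AXIN proteins for degradation, rose by 2.24 in mESC-ser (SE 0.15) and fell by 3.46 in EpiLC (SE 0.24). Apc rose by 1.40 (SE 0.18) and fell by 1.68 (SE 0.19) in the same comparisons. Tnks2 rose by 0.77 (SE 0.10) and Csnk1e fell by 0.66 (SE 0.11) in mESC-ser, and in EpiLC Dvl3 fell by 2.70 (SE 0.26) and Csnk1e by 2.27 (SE 0.11). From mESC-ser to EpiLC Tnks fell by 5.66 (SE 0.17), Apc by 3.04 (SE 0.10) and Dvl3 by 2.98 (SE 0.15), and Btrc rose by 0.60 (SE 0.09). Against mESC-2i again, Ctnnb1, the β-catenin gene, was not called in mESC-ser (-0.16, SE 0.10) and fell by 0.98 in EpiLC (SE 0.09), and Gsk3b was not called in mESC-ser (0.28, SE 0.13) and fell by 0.90 in EpiLC (SE 0.13).

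The TCF/LEF factors and their co-factors, 15 genes, gave 6 higher and 4 lower in mESC-ser versus mESC-2i, 2 higher and 6 lower in EpiLC versus mESC-2i, and 3 higher and 9 lower in EpiLC versus mESC-ser. Lef1 rose from 21.6 ± 3.00 CPM in mESC-2i to 71.7 ± 6.83 in mESC-ser and 110 ± 13.3 in EpiLC (SD, n = 3), by 1.70 (SE 0.13) and 2.34 (SE 0.13) on the log2 scale, opposite to Axin2. In mESC-ser versus mESC-2i the co-repressor gene Tle4 rose more, by 2.03 (SE 0.12), from 58.6 ± 7.93 to 243 ± 17.2 CPM, and Chd8 by 1.05 (SE 0.16). Pygo1, a co-activator gene, fell by 1.59 (SE 0.23), Tcf7 by 0.82 (SE 0.10) and Tle5 by 0.54 (SE 0.13). In EpiLC versus mESC-2i Pygo1 fell by 3.95 (SE 0.55), from 5.28 ± 0.895 to 0.347 ± 0.510 CPM, Tle3 by 1.72 (SE 0.09) and Tle5 by 1.13 (SE 0.12), and Ctnnbip1 rose by 0.90 (SE 0.12). In EpiLC versus mESC-ser Pygo1 fell by 2.33 (SE 0.56), Tle4 by 1.87 (SE 0.08) and Bcl9l by 1.34 (SE 0.12), and Ctnnbip1 rose by 0.86 (SE 0.09), Lef1 by 0.68 (SE 0.10) and Tcf7 by 0.66 (SE 0.08). Tcf7l1, which encodes a repressor of pluripotency genes that β-catenin relieves, was not called in any of the 3 comparisons (0.10, SE 0.12, -0.18, SE 0.11, and -0.24, SE 0.09).

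A further 25 genes known as Wnt targets in other settings did not fall in concert. Of 22 tested in mESC-ser versus mESC-2i, 8 were called higher and 9 lower, with a median log2 fold change of 0.12. Of 23 tested in EpiLC versus mESC-2i, 5 were called higher and 12 lower (median -0.50), and of 23 tested in EpiLC versus mESC-ser, 8 were called higher and 12 lower (median -1.14). In the background, 25.9%, 32.0% and 35.5% of all tested genes were called higher in these comparisons and 30.3%, 37.8% and 37.8% lower. Among the largest falls of the 25 genes from mESC-2i to mESC-ser were those of developmental regulators, Nkx1-2 (-6.01, SE 0.17), T (-4.34, SE 0.16) and Cdx1 (-4.34, SE 0.21). Nkx1-2 resembled Nkd1 in being lowest in mESC-ser, at 36.6 ± 1.87, 0.573 ± 0.0515 and 1.65 ± 0.362 CPM in mESC-2i, mESC-ser and EpiLC, and rose by 1.60 (SE 0.33) in EpiLC versus mESC-ser. In the other direction, Myc rose by 3.98 (SE 0.13) in mESC-ser versus mESC-2i, from 8.26 ± 0.956 to 131 ± 9.92 CPM, Bmp4 by 1.96 (SE 0.15) and Sall4 by 1.36 (SE 0.11). In EpiLC versus mESC-2i Tbx3 fell by 7.33 (SE 0.15), from 224 ± 19.3 to 1.39 ± 0.184 CPM, and T fell to 1.35 ± 0.271 CPM, while Cdx1 went from 1593 counts in the 3 mESC-2i libraries to 2 in EpiLC. Myc rose by 2.66 (SE 0.12), Ascl2 by 2.13 (SE 0.30) and Wnt8a by 1.49 (SE 0.17). From mESC-ser to EpiLC Tbx3 fell by 6.26 (SE 0.14) and Ccnd2 by 4.96 (SE 0.16), Cdx1 went from 108 to 2 counts, and Mixl1 rose by 2.23 (SE 0.43), Nrcam by 2.12 (SE 0.19) and Ascl2 by 1.68 (SE 0.19). Unless given otherwise, genes of these pathway lists named as rising or falling passed the same edgeR test and threshold as the targets.

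**Figure D5:**
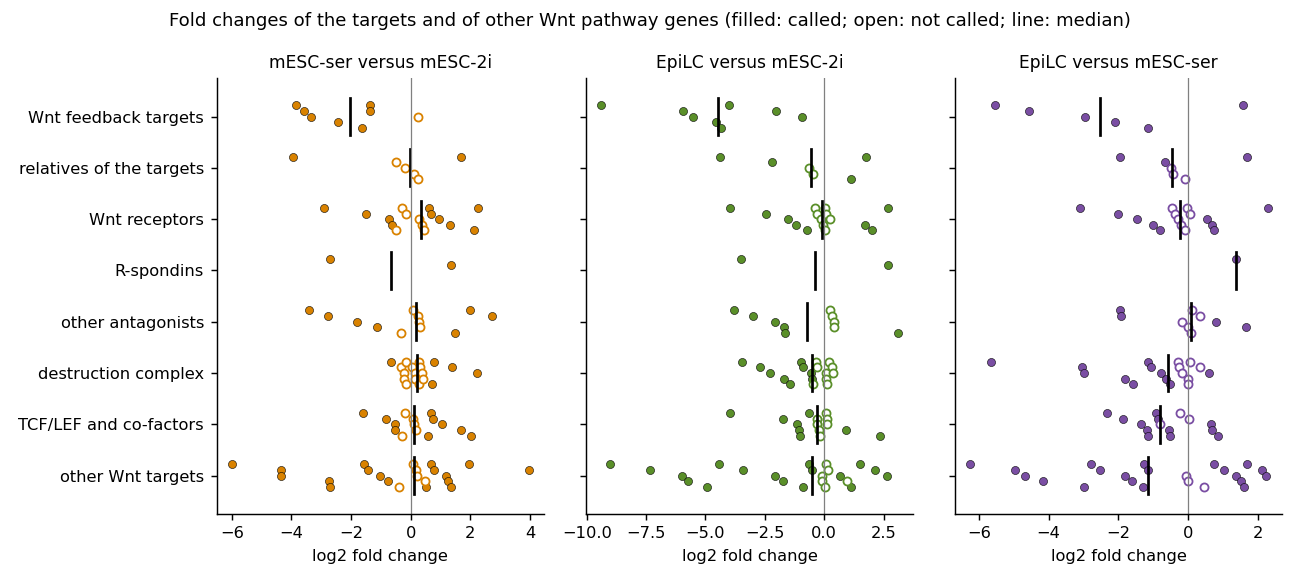
Log2 fold changes (x axis) of the targets and of 7 lists of other Wnt pathway genes (rows) in the 3 comparisons (panels), 1 point a tested gene, spread vertically for legibility. Filled points were called, open points were not, and black lines are medians. The targets have the lowest median in each panel, at -2.02, -4.47 and -2.54, and genes of most other lists lie on both sides of 0.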

How the data were processed

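Poly-A RNA was made into libraries with a kit that does not mark strand and sequenced as single-end reads of 50 bases. Per the labels and the study's methods, the authors trimmed reads with Trim Galore (0.6.6), aligned them to mm10 with HISAT2 (2.2.1) and assigned them to genes with featureCounts of Subread (2.0.1). The authors deposited whole-number read counts for each Ensembl gene identifier, not normalized. The annotation release, strand setting and handling of reads with several alignments are not given in the sources used here. Genes were named and measured with GENCODE M21, which matched 36345 of 38293 identifiers (94.9%), and promoter windows came from RefSeq.

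Groups and replicate numbers were taken from the labels. The mESC-ser columns of the count table are named SL, read as the initials of serum and LIF, and LT in the titles of the mESC-2i libraries is not explained. The labels call the libraries biological replicates without saying whether they came from separate cultures, so p-values measure the spread between these libraries. Each pair of states was fitted on its 6 libraries with edgeR (4.0.16, with limma 3.58.1, in R 4.3.3) after filterByExpr and TMM scaling, with the quasi-likelihood F-test. These main fits held no replicate term, for mESC-ser versus mESC-2i as well. SE was taken from the F statistic, and at few counts it can lie below counting error. In EpiLC versus mESC-2i the fitted intervals of Sp5, Rnf43, Dkk1, Notum and Apcdd1 were narrower than the exact ones. CPM was scaled by TMM over all 9 libraries, and log2 CPM used a prior count of 2. The fits did not use this value and kept the default prior count of edgeR. Exact intervals of count ratios cover counting error only, since reads carry no molecular identifiers. The fits were tested on simulated data.

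The members and gene lists were chosen with earlier results of these data known. All 9 targets are named, and of each pathway list up to 3 called genes per direction and comparison with the largest changes, with genes that were not called. For likeness the 3 genes with the highest Pearson r were taken among named genes with a mean of at least 100 counts in their highest group. The rise of Nkx1-2 in EpiLC versus mESC-ser and the falls of Apc, Lrp6, Ctnnb1 and Gsk3b in EpiLC versus mESC-2i stand outside this rule and were chosen after their values were seen.

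To see if replicate numbers pair libraries, deviations from group means were correlated. In mESC-ser and mESC-2i same-numbered libraries correlated at 0.129 to 0.345, all over 0.1, and others at -0.278 to 0.146. The numbers were taken to pair them, although these ranges overlap and what a number marks is not labelled. In EpiLC versus mESC-2i the values were 0.0195 to 0.112, against -0.114 to 0.0105 for others. In EpiLC versus mESC-ser they were 0.0165 to 0.0335, against -0.0308 to 0.0159. Same-numbered libraries thus lay above others there too, but the values were mostly small and the libraries were taken to share only a number. Whether numbers pair libraries is not settled by these values. Chi-square values per degree of freedom between replicates were 1.61 to 28.3, so no replicates agreed within sampling noise. Replicate 3 stood furthest from the others in both mESC states. In mESC-2i the value was 3.85 between replicates 1 and 2, and 12.6 and 28.3 with replicate 3. In mESC-ser these values were 1.61, and 10.9 and 11.0. Alternatives were scaling by RLE, by upper quartile or by total count, leaving out the filter, a filter at 10 counts in each library, DESeq2 (1.42.0), 1 fit of all 9 libraries, a replicate block, offsets for gene length and GC content (natural splines with 5 degrees of freedom), other fold thresholds, and leaving out each library.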

Additional observations from a re-analysis of the deposited data

How the results depend on the processing

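No target changed direction under any alternative, and of the fold changes compared, 134 of 134 in mESC-ser versus mESC-2i, 130 of 132 in EpiLC versus mESC-2i and 99 of 100 in EpiLC versus mESC-ser kept their side of the threshold. The exceptions were all Znrf3, under length and GC offsets (-0.43 and -0.50 against mESC-2i and mESC-ser) and, in EpiLC versus mESC-2i, at a log2 fold threshold of 1. These numbers include the other fold thresholds, which reuse the main fit, so their fold changes could not differ. With no fold threshold a called target could not lose its call. With at least 10 counts in every library 4 targets were called in EpiLC versus mESC-2i in place of 8, because 4 were tested. At a fold threshold of 1, 4935 genes were called in mESC-ser versus mESC-2i in place of 8843, and 7 targets remained called. The replicate block, taken as a pairing for mESC-ser versus mESC-2i, changed no call of a target there, with 7 called and Axin2 at -2.42, and left 8 and 6 targets called in the comparisons with EpiLC. Total-count scaling moved the median of all genes from -0.11 to -0.45 in EpiLC versus mESC-2i and from -0.07 to -0.41 in EpiLC versus mESC-ser, and the share of calls that were higher from 45.9% to 33.7% and from 48.4% to 37.4%. Nkd1 in EpiLC versus mESC-ser was 1.24 under it and still called. Depth limits Lgr5, Dkk1, Rnf43 and Sp5 in EpiLC, where libraries held 0 to 4 counts. With no filter, Rnf43 and Dkk1 were called lower in EpiLC versus mESC-ser (-2.25 and -2.46, edgeR adjusted p = 0.000287 and 0.00163). In mESC-ser versus mESC-2i, Lgr5 was called in 1 of the 6 fits that tested it, the one without mESC-2i replicate 2 (-1.37, edgeR adjusted p = 0.0113), and in EpiLC versus mESC-2i in 3 of 6, with no filter, without mESC-2i replicate 2 and without EpiLC replicate 1 (adjusted p = 0.0460, 0.0116 and 0.0497).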
